A study of Mus musculus with 6 samples.

Results

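The genes described here are a set of 40 neutrophil genes that encode granule proteins, surface receptors and cytosolic or secreted proteins of neutrophils and their bone marrow precursors. They were chosen by name, as the probe sets whose platform annotation gives the symbol of a listed gene. Of the 40 genes, 37 were measured, among 19938 genes on the array. Of these, 35 carried the listed symbol and 2 were found under a newer one (Chi3l3 as Chil3 and Chi3l1 as Chil1). Stfa1 shares its probe set with other genes and was not named, and Fpr1 and Fpr2 were not analysed here. The measured genes were grouped as 4 early granule genes, 13 late granule genes, 11 receptor and surface genes, and 9 cytosolic, secreted and regulator genes.

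The samples were B-lineage cells, in which these genes are not part of the usual expression programme, and the arrays cannot tell neutrophil-lineage cells mixed into a sample from transcription of these genes in the B-lineage cells themselves. Total RNA of 6 mouse samples was measured on 1-colour Affymetrix Mouse Gene 1.0 ST arrays, 2 arrays in each of 3 groups. Lymphomas of Eµ-Myc mice with the Ezh2 hairpin shEzh2.781, lymphomas of Eµ-Myc mice with the Ezh2 hairpin shEzh2.556, and splenic B cells of premalignant Eµ-Myc mice were compared. All groups therefore carry the Myc transgene, which the immunoglobulin heavy chain enhancer drives in B-lineage cells. Per the labels, the lymphoma cells were enriched with CD43 beads, which leave B cells untouched, and at least 95% were positive for the B cell protein B220 and for GFP. For the premalignant cells, the titles and source name the Eµ-Myc transgene, whereas the characteristics call them normal control B cells. The titles and source were followed. No Eµ-Myc lymphoma without an Ezh2 hairpin is among these arrays, so malignancy, the hairpins and the way the cells were obtained cannot be told apart. The premalignant cells came from 2 independent preparations, per the design text, and are described as sorted. For the hairpins the labels number the arrays without saying that they come from separate mice, so p-values measure the spread between these arrays, which may be technical. In RNA of whole samples, fewer neutrophils and less RNA per neutrophil cannot be told apart.

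Neutrophils mature in the bone marrow through stages that each fill a new kind of granule. Promyelocytes make the early, azurophil granules with myeloperoxidase and the serine proteases. Myelocytes and metamyelocytes make the specific and gelatinase granules, here called late granules, with lactoferrin, cathelicidin and matrix metalloproteinases. Chemokine and growth factor receptors and the S100 proteins are high in mature cells. Granule genes are switched on by transcription factors that include PU.1, RUNX1, C/EBPα and, for the late granules, C/EBPε. Mature neutrophils keep little messenger RNA for azurophil proteins, so early and late genes read out different stages.

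Promoter sequences were taken from RefSeq (GRCm38.p6), as the 250 bases before the start of each gene, for the 33 of 37 genes that matched. Both strands were searched for GAGGAAGT, a PU.1 site, for TTGCNNAA, a C/EBP core whose other strand reads TTNNGCAA, and for TGTGGT, a RUNX site. No match of one motif overlapped a match of another in the sequences printed here. GAGGAAGT was present in 3 of 4 early granule promoters (75.0%), in 2 of 11 late granule promoters and in 8 of the 33 (24.2%), against 755 of 27025 genes in the reference table (2.79%). TTGCNNAA was present in 5 of 11 late granule promoters (45.5%), in 0 of 4 early granule promoters and in 10 of the 33 (30.3%), against 2930 of all genes (10.8%). TGTGGT was present in 4 of the 33 (12.1%), against 4303 of all genes (15.9%). The 120 bases before the start are shown for the early protease genes Elane and Prtn3, which hold a PU.1 match, and for the late granule genes Ltf, Ngp and Mmp8, which hold a C/EBP match and were the late genes with the largest falls in lymphomas. Capitals mark the match, and each sequence reads 5′ to 3′ on the strand of the gene.
Elane, chr10:79886192-79886311, + strand: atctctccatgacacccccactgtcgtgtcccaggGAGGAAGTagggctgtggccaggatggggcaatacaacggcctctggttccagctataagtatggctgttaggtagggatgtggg
Prtn3, chr10:79879547-79879666, + strand: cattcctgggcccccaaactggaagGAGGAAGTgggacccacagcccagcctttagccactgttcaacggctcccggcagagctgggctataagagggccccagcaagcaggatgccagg
Ltf, chr9:111019172-111019291, + strand: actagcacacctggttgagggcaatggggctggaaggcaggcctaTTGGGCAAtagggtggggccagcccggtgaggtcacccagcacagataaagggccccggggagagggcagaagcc
Ngp, chr9:110419688-110419807, + strand: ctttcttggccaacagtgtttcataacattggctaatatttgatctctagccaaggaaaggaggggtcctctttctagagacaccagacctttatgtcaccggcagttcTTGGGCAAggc
Mmp8, chr9:7558309-7558428, + strand: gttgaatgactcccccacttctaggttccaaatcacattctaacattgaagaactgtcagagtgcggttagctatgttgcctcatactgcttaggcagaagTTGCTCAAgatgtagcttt
The PU.1 match began 85 bases before the start of Elane and 95 before that of Prtn3, which lie close together on chromosome 10. Mpo also held GAGGAAGT, beginning 224 bases before its start. The C/EBP match began 75 bases before the start of Ltf, 11 before that of Ngp and 19 before that of Mmp8. Ngp held another C/EBP match beginning at 138 bases, and Mmp8 a PU.1 match beginning at 221 bases, both upstream of the stretch shown. These are matches of letters and not sites of binding, and the array values do not bear on them. The late genes shown were picked partly by their fall. Of the other late genes with a promoter, Lcn2 (log2 difference -2.08) and Fcnb (-0.63) also held a C/EBP match. Chil3 (-1.66), Camp (-1.59), Chil1 (-1.45), Pglyrp1 (-1.01), Olfm4 (-0.78) and Mmp25 (-0.64) held none.

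The arrays of a group were close to each other over all genes. The correlation between the 2 arrays of a group over all genes was 0.9963 for shEzh2.781, 0.9957 for shEzh2.556 and 0.996 for premalignant cells. The B cell genes Cd79a, a signalling chain of the B cell receptor, and Ptprc, whose B cell isoform is B220, were at 12.34 to 12.56 and at 10.37 to 10.88 log2 signal over all 6 arrays. Of the other B cell genes, Pax5, Ebf1 and Blnk were lower in lymphomas, with log2 differences of -0.44 ± 0.10 (adjusted p = 0.00936) for Pax5, -0.49 ± 0.10 (adjusted p = 0.00566) for Ebf1 and -0.48 ± 0.11 (adjusted p = 0.0121) for Blnk, and Cd22 was higher at 0.55 ± 0.10 (adjusted p = 0.00309), each ± its SE in limma. Ezh2, the gene the hairpins target, had a log2 signal of 10.92 and 11.07 on the shEzh2.781 arrays, 11.20 and 11.30 on the shEzh2.556 arrays, and 12.64 and 12.70 on the premalignant arrays, which is lower in lymphomas by a log2 difference of -1.55 (SE 0.10, limma adjusted p = 1.31e-06). The file holds no detection call, so a signal at or below the 95th percentile of 1194 olfactory and vomeronasal receptor genes of the same array was called near background. By that guide 7 and 4 of the 37 neutrophil genes were near background on the shEzh2.781 arrays, 19 and 23 on the shEzh2.556 arrays, and 3 and 4 on the premalignant arrays. Of the 37 genes, 13 were above it on all 6 arrays and 3 (Trem1, Clec4d and Clec4e) were near background on all 6. Both shEzh2.556 arrays were near background also for Ctsg, Mmp8, Mmp25, Chil3, Fcnb, Olfm4, Ly6g, Cxcr2, Csf3r, Trem3, Mcemp1, Il1r2, Retnlg, Anxa1 and Il1b. Array signals have no known zero, so a fold from a signal near background describes the signal and not the RNA.

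Most of the neutrophil genes were lower in lymphomas than in premalignant cells. With all genes fitted together in limma and p-values adjusted by Benjamini-Hochberg over all 19938 genes, 30 of 37 were lower at an adjusted p under 0.05 and 0 were higher. The background is 9.61% of all genes lower and 5.60% higher, and the only genes with a positive difference were Il1b and Il1r2, which did not pass the test. At an unadjusted p under 0.05 the counts were 32 lower and 0 higher. The share of all genes at an unadjusted p was not counted, here or for the unadjusted counts below. The median log2 difference of the 37 genes was -1.0, against 0.03 for all genes. All 4 lymphoma arrays were below both premalignant arrays for 28 of 37 genes, against 16.1% of all genes. Taken alone against premalignant cells, shEzh2.781 lymphomas had 21 genes lower and 0 higher (background 6.24% and 4.60%), with a median log2 difference of -0.58. For shEzh2.556 lymphomas the count was 31 lower and 0 higher (background 11.4% and 6.80%), with a median of -1.32. At an unadjusted p under 0.05 the count higher was 1 (Il1b) for shEzh2.781 and 0 for shEzh2.556. These comparisons share the premalignant arrays. With both hairpins treated as 1 group of 4 arrays the count for lymphomas was 10 lower. In that fit 1091 of all genes were called in either direction, against 3033 in the reported fit. Without premalignant array 2 fewer of the 37 genes were lower for shEzh2.781, and fewer of all genes were called as well.

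**Figure D1:**
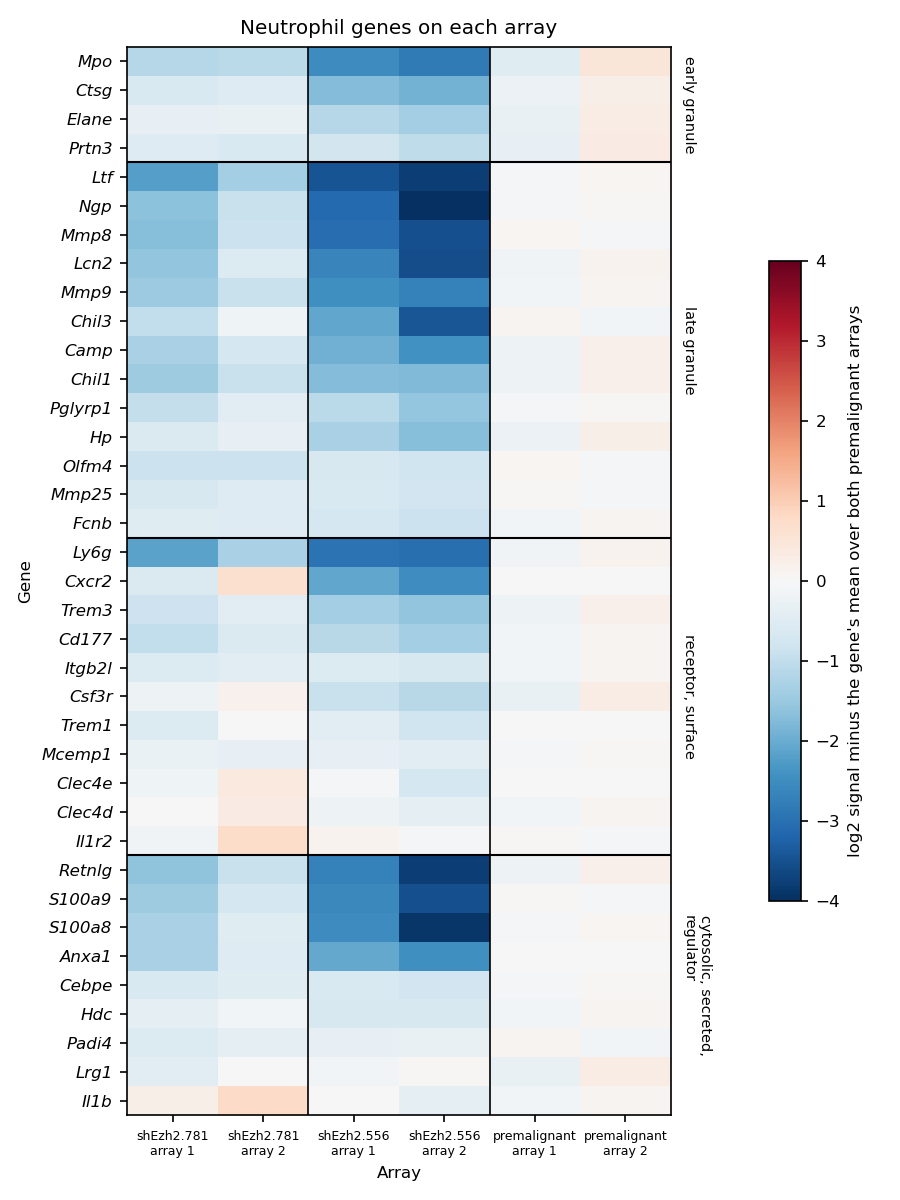
Log2 signal of each of the 37 neutrophil genes (rows, by class) on each of the 6 arrays (columns), shown as the difference from the mean of that gene over both premalignant arrays. The shEzh2.556 columns are bluer than the shEzh2.781 columns in 4 of 4 early and 11 of 13 late granule rows, the exceptions being Olfm4 and Mmp25, and shEzh2.781 array 2 lies closer to the premalignant columns than shEzh2.781 array 1 in most rows.

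The 4 early granule genes were all lower in lymphomas, with a median log2 difference of -0.99. For shEzh2.781 alone 2 of 4 were lower (Mpo and Ctsg), and for shEzh2.556 alone 4 of 4. The shEzh2.781 differences were -1.10 for Mpo and -0.56 for Ctsg. Without premalignant array 2 they were -0.62 and -0.34, and neither call was kept. Myeloperoxidase, encoded by Mpo, makes hypochlorous acid in the azurophil granule. Its log2 signal was 8.18 and 8.24 on the shEzh2.781 arrays, 6.78 and 6.48 on the shEzh2.556 arrays, and 8.83 and 9.79 on the premalignant arrays. The lymphoma arrays were all below the premalignant arrays and the shEzh2.556 arrays were below the shEzh2.781 arrays. The log2 difference of Mpo in lymphomas was -1.89 (SE 0.20, limma adjusted p = 6.25e-05), a 3.7-fold lower signal. Ctsg, which encodes the serine protease cathepsin G, had a log2 signal of 6.80 and 6.89 on the shEzh2.781 arrays, 5.66 and 5.51 on the shEzh2.556 arrays, and 7.18 and 7.63 on the premalignant arrays. It was lower in lymphomas by a log2 difference of -1.19 (SE 0.13, limma adjusted p = 5.9e-05). The groups stood in the same order as for Mpo, without overlap.

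Elane, which encodes neutrophil elastase, had a log2 signal of 7.89 and 7.90 on the shEzh2.781 arrays, 7.08 and 6.86 on the shEzh2.556 arrays, and 7.92 and 8.50 on the premalignant arrays. On the shEzh2.781 arrays it lay just under premalignant array 1, while the shEzh2.556 arrays were clearly lower. The log2 difference of Elane was -0.31 ± 0.17 (adjusted p = 0.318) for shEzh2.781 and -1.24 ± 0.17 (adjusted p = 0.000325) for shEzh2.556, each ± its SE in limma. Prtn3, which encodes proteinase 3, had a log2 signal of 6.91 and 6.80 on the shEzh2.781 arrays, 6.68 and 6.39 on the shEzh2.556 arrays, and 7.09 and 7.75 on the premalignant arrays. Its log2 difference in lymphomas was -0.73 (SE 0.16, limma adjusted p = 0.00905), the smallest of the 4. Without premalignant array 2, on which all 4 early genes were higher than on array 1, Elane and Prtn3 no longer passed the test in lymphomas. In that fit their log2 differences were -0.49 for Elane and -0.40 for Prtn3. With both hairpins treated as 1 group, the lymphoma calls of all 4 early granule genes were lost.

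The late granule genes held the largest falls, and all 13 were lower in lymphomas, with a median log2 difference of -1.59. For shEzh2.781 alone 10 of 13 were lower, and for shEzh2.556 alone 13 of 13. For all 13 genes the 4 lymphoma arrays were below both premalignant arrays. Ltf encodes lactoferrin, the iron-binding protein of the specific granule. Its log2 signal was 8.0 and 8.85 on the shEzh2.781 arrays, 6.75 and 6.44 on the shEzh2.556 arrays, and 10.14 and 10.28 on the premalignant arrays. No groups overlapped, and the premalignant arrays were close together. Ltf was lower in lymphomas by a log2 difference of -2.70 (SE 0.19, limma adjusted p = 2.62e-06). The signal was 3.45-fold lower with shEzh2.781 and 12.2-fold lower with shEzh2.556, where it reached the near-background range on array 2.

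Mmp8 and Mmp9 showed the same order of groups. Mmp8, which encodes neutrophil collagenase, had a log2 signal of 6.68 and 7.52 on the shEzh2.781 arrays, 5.34 and 4.86 on the shEzh2.556 arrays, and 8.46 and 8.32 on the premalignant arrays. Both shEzh2.556 arrays were near background. Mmp8 was lower in lymphomas by a log2 difference of -2.29 (SE 0.20, limma adjusted p = 1.28e-05). For Mmp9, which encodes gelatinase B, the log2 signal was 7.67 and 8.24 on the shEzh2.781 arrays, 6.67 and 6.44 on the shEzh2.556 arrays, and 9.02 and 9.23 on the premalignant arrays. Its log2 difference in lymphomas was -1.87 (SE 0.15, limma adjusted p = 6.96e-06), and its groups did not overlap. Mmp25, a membrane-bound metalloproteinase gene, was lower by a log2 difference of -0.64 (SE 0.10, limma adjusted p = 0.000997) and did not pass the test between hairpins, with a log2 difference of 0.11 ± 0.12 (adjusted p = 0.523).

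Among the small antimicrobial and carrier proteins, Ngp (neutrophilic granule protein) had a log2 signal of 9.75 and 10.50 on the shEzh2.781 arrays, 8.30 and 7.23 on the shEzh2.556 arrays, and 11.35 and 11.45 on the premalignant arrays. Even on the shEzh2.556 arrays Ngp stayed above the near-background range. Its log2 difference was -2.45 (SE 0.25, limma adjusted p = 5.03e-05) in lymphomas, with a 12.4-fold lower signal for shEzh2.556. Lcn2 encodes lipocalin 2, which binds bacterial siderophores, and its log2 signal was 9.42 and 10.46 on the shEzh2.781 arrays, 8.35 and 7.45 on the shEzh2.556 arrays, and 10.87 and 11.14 on the premalignant arrays. The log2 difference of Lcn2 was -1.06 (SE 0.31, limma adjusted p = 0.0509) for shEzh2.781, just short of passing the test, and -3.10 (SE 0.31, limma adjusted p = 3.66e-05) for shEzh2.556. Camp, which encodes the cathelicidin peptide, had a log2 signal of 7.66 and 8.26 on the shEzh2.781 arrays, 7.06 and 6.53 on the shEzh2.556 arrays, and 8.75 and 9.18 on the premalignant arrays. Camp was lower in lymphomas by a log2 difference of -1.59 (SE 0.19, limma adjusted p = 0.000128), without overlap between groups. Hp, the haptoglobin gene, had a log2 signal of 7.42 and 7.66 on the shEzh2.781 arrays, 6.69 and 6.27 on the shEzh2.556 arrays, and 7.76 and 8.20 on the premalignant arrays. Its log2 difference was -0.44 (SE 0.17, limma adjusted p = 0.146) for shEzh2.781, which did not pass the test, and -1.50 (SE 0.17, limma adjusted p = 0.000109) for shEzh2.556.

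The chitinase-like genes Chil1 and Chil3 encode secreted lectins related to chitinases but without their enzyme activity. Chil1 had a log2 signal of 7.23 and 7.76 on the shEzh2.781 arrays, 6.89 and 6.88 on the shEzh2.556 arrays, and 8.44 and 8.84 on the premalignant arrays, and was lower in lymphomas by -1.45 (SE 0.15, limma adjusted p = 5.03e-05) on the log2 scale as a difference. Chil3 had a log2 signal of 6.74 and 7.58 on the shEzh2.781 arrays, 5.67 and 4.31 on the shEzh2.556 arrays, and 7.84 and 7.63 on the premalignant arrays. The shEzh2.556 arrays of Chil3 differed from each other by more than the shEzh2.781 arrays did from the premalignant arrays. Its log2 difference, ± its SE, was -0.58 ± 0.35 (adjusted p = 0.396) for shEzh2.781 and -2.75 ± 0.35 (adjusted p = 0.000223) for shEzh2.556. Its call in lymphomas was lost without premalignant array 1, and also with both hairpins treated as 1 group. The other late granule genes were Pglyrp1, which encodes a bacterial cell wall binding protein, the ficolin gene Fcnb, and Olfm4, which encodes olfactomedin 4. Their log2 differences in lymphomas were -1.01 ± 0.16 (adjusted p = 0.00105) for Pglyrp1, -0.63 ± 0.10 (adjusted p = 0.00128) for Fcnb and -0.78 ± 0.10 (adjusted p = 0.00021) for Olfm4, each ± its SE.

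**Figure D2:**
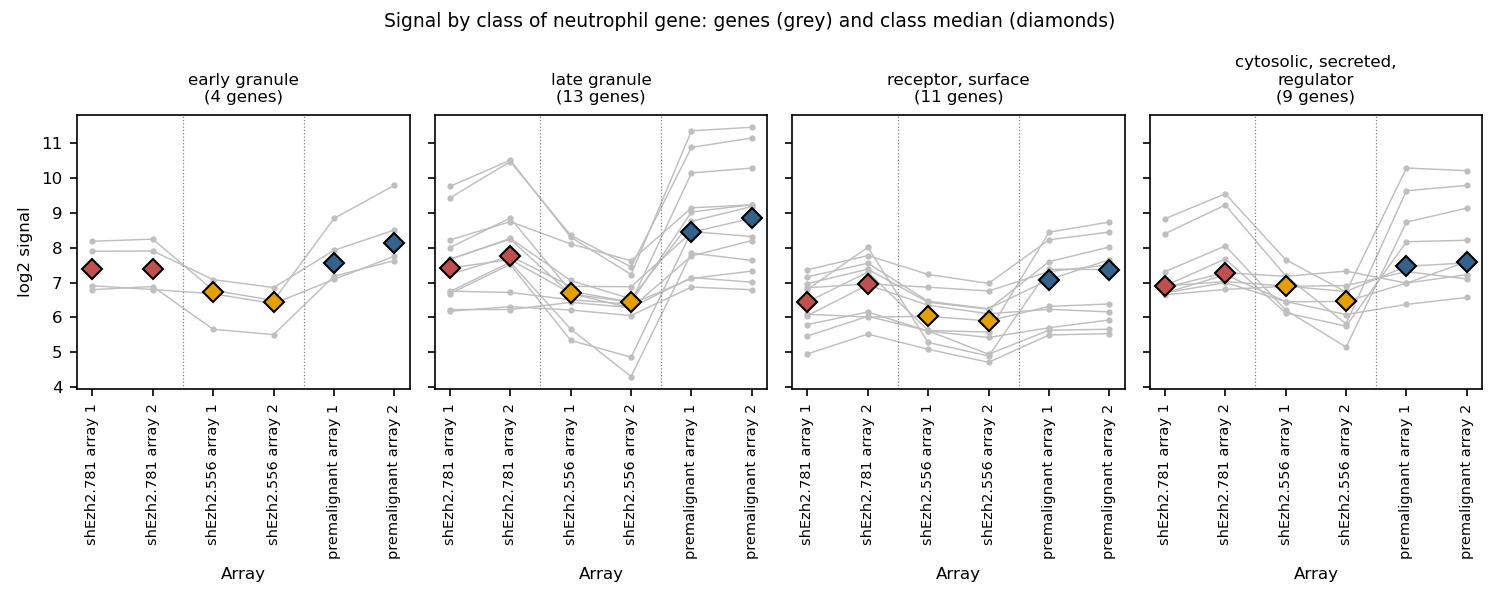
Log2 signal of each neutrophil gene (grey lines) and the class median (diamonds) on each array, in 4 panels by class. The late granule median was 7.42 and 7.76 on the shEzh2.781 arrays, 6.69 and 6.44 on the shEzh2.556 arrays, and 8.46 and 8.84 on the premalignant arrays, a wider spread than in the receptor and surface panel.

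The receptor and surface genes split. Of 11, 6 were lower in lymphomas, with a class median log2 difference of -0.51. On the premalignant arrays 3 and 4 of the 11 were already near background, against 0 of the 13 late granule genes. Genes near background there had little room to show a fall, which limits the comparison of the classes. For shEzh2.781 alone the count was 4 of 11, and for shEzh2.556 alone 8 of 11. Ly6g, which encodes the surface protein used to identify mouse neutrophils, had a log2 signal of 6.44 and 7.30 on the shEzh2.781 arrays, 5.63 and 5.58 on the shEzh2.556 arrays, and 8.44 and 8.73 on the premalignant arrays. The 3 groups did not overlap, and both shEzh2.556 arrays were near background. Ly6g was lower in lymphomas by a log2 difference of -2.35 (SE 0.19, limma adjusted p = 6.96e-06). Cd177, whose product is a neutrophil surface protein, had a log2 signal of 7.36 and 7.77 on the shEzh2.781 arrays, 7.23 and 6.97 on the shEzh2.556 arrays, and 8.22 and 8.45 on the premalignant arrays. Its log2 difference in lymphomas was -1.0 (SE 0.13, limma adjusted p = 0.000302). Ly6g and Chil3 have close relatives in the mouse genome, and cross-hybridization was not tested.

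Trem3, an activating receptor gene of myeloid cells, had a log2 signal of 6.97 and 7.38 on the shEzh2.781 arrays, 6.43 and 6.24 on the shEzh2.556 arrays, and 7.60 and 8.02 on the premalignant arrays. It was lower in lymphomas by a log2 difference of -1.05 (SE 0.15, limma adjusted p = 0.000401), and its groups did not overlap. Itgb2l, a relative of the β2 integrin gene, had a log2 signal of 6.85 and 6.96 on the shEzh2.781 arrays, 6.87 and 6.76 on the shEzh2.556 arrays, and 7.31 and 7.51 on the premalignant arrays. Itgb2l fell in lymphomas by a log2 difference of -0.55 (SE 0.10, limma adjusted p = 0.00313), and the hairpins overlapped. Its adjusted p without premalignant array 2 was 0.053. Mcemp1, a membrane protein gene of mast cells and neutrophils, was lower by a log2 difference of -0.34 (SE 0.10, limma adjusted p = 0.034), and that call was lost in 7 of 12 alternatives.

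Cxcr2 encodes the receptor for CXCL1 and CXCL2 that draws mature neutrophils into tissue. Its log2 signal was 6.80 and 8.01 on the shEzh2.781 arrays, 5.28 and 4.90 on the shEzh2.556 arrays, and 7.38 and 7.37 on the premalignant arrays. The shEzh2.556 arrays were near background and the lowest, whereas the shEzh2.781 arrays lay on either side of the premalignant arrays. The log2 difference of Cxcr2 was 0.03 (SE 0.28, limma adjusted p = 0.972) for shEzh2.781 and -2.29 (SE 0.28, limma adjusted p = 0.00018) for shEzh2.556. Without shEzh2.781 array 1 the shEzh2.781 difference was 0.63 and without array 2 it was -0.57. Each value rests on the 1 shEzh2.781 array left, so no spread within that group enters. The lymphoma call for Cxcr2, a log2 difference of -1.13 (SE 0.25, limma adjusted p = 0.00836), was lost when either premalignant array was left out. It was also lost with both hairpins treated as 1 group.

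Csf3r, which encodes the receptor for the growth factor G-CSF, had a log2 signal of 7.16 and 7.55 on the shEzh2.781 arrays, 6.46 and 6.25 on the shEzh2.556 arrays, and 7.08 and 7.65 on the premalignant arrays. The shEzh2.781 and premalignant arrays overlapped, and the shEzh2.556 arrays were the lowest. In lymphomas the log2 difference of Csf3r was -0.51 (SE 0.16, limma adjusted p = 0.0521), which did not pass the test as reported but did in 5 of 12 alternatives. It was -0.01 (SE 0.18, limma adjusted p = 0.986) for shEzh2.781 and -1.01 (SE 0.18, limma adjusted p = 0.00265) for shEzh2.556. For 4 other genes, of pattern recognition and interleukin-1 binding, the test did not pass in lymphomas. The log2 differences were -0.45 ± 0.15 (adjusted p = 0.0764) for Trem1, -0.07 ± 0.12 (adjusted p = 0.78) for Clec4d, -0.13 ± 0.18 (adjusted p = 0.71) for Clec4e and 0.16 ± 0.19 (adjusted p = 0.651) for Il1r2, each ± its SE. The first 3 were near background on all arrays. Among them Trem1 passed the test for shEzh2.556, with a log2 difference of -0.62 (SE 0.18, limma adjusted p = 0.0323), a call lost in 3 of 11 alternatives, which leave out premalignant array 1, premalignant array 2 or shEzh2.556 array 2. Il1r2, the decoy receptor for interleukin-1, had a log2 signal of 6.05 and 6.93 on the shEzh2.781 arrays, 6.35 and 6.11 on the shEzh2.556 arrays, and 6.23 and 6.16 on the premalignant arrays. It stood out on shEzh2.781 array 2. Without shEzh2.781 array 1, Il1r2 was higher on the 1 shEzh2.781 array left by a log2 difference of 0.74.

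Of the 9 cytosolic, secreted and regulator genes, 7 were lower in lymphomas, with a median log2 difference of -0.62. For shEzh2.781 alone the count was 5 of 9, and for shEzh2.556 alone 6 of 9. S100a8 and S100a9 encode the subunits of calprotectin, an abundant calcium-binding protein of the neutrophil cytosol. S100a9 had a log2 signal of 8.83 and 9.54 on the shEzh2.781 arrays, 7.65 and 6.73 on the shEzh2.556 arrays, and 10.28 and 10.20 on the premalignant arrays. For S100a8 the log2 signal was 8.40 and 9.22 on the shEzh2.781 arrays, 7.19 and 5.82 on the shEzh2.556 arrays, and 9.63 and 9.78 on the premalignant arrays. For both genes the shEzh2.556 arrays were the lowest and the premalignant arrays the highest, without overlap. S100a9 was lower in lymphomas by a log2 difference of -2.05 (SE 0.23, limma adjusted p = 8.68e-05), and S100a8 by -2.05 (SE 0.30, limma adjusted p = 0.000674). For shEzh2.781 alone, the S100a8 difference was -0.90 ± 0.35 (adjusted p = 0.146).

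Retnlg, which encodes a resistin-like secreted protein of mouse neutrophils, had a log2 signal of 7.31 and 8.05 on the shEzh2.781 arrays, 6.21 and 5.15 on the shEzh2.556 arrays, and 8.73 and 9.13 on the premalignant arrays. Retnlg fell in lymphomas by a log2 difference of -2.25 (SE 0.26, limma adjusted p = 0.00011). Anxa1, which encodes the phospholipid-binding protein annexin A1, had a log2 signal of 6.90 and 7.67 on the shEzh2.781 arrays, 6.13 and 5.75 on the shEzh2.556 arrays, and 8.17 and 8.21 on the premalignant arrays. Its log2 difference in lymphomas was -1.57 (SE 0.18, limma adjusted p = 0.000102). For both genes the shEzh2.781 arrays lay above the shEzh2.556 arrays and below the premalignant arrays. Cebpe encodes C/EBPε, the transcription factor of late granule genes, and its log2 signal was 6.90 and 7.03 on the shEzh2.781 arrays, 6.90 and 6.74 on the shEzh2.556 arrays, and 7.47 and 7.56 on the premalignant arrays. Cebpe was lower in lymphomas by a log2 difference of -0.62 (SE 0.10, limma adjusted p = 0.00127), and the lower shEzh2.781 array was level with the higher shEzh2.556 array.

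The remaining genes of the class moved less. Hdc, which encodes the enzyme that makes histamine, had a log2 difference in lymphomas of -0.45 (SE 0.12, limma adjusted p = 0.02). Padi4, which encodes the enzyme that citrullinates histones when neutrophil extracellular traps form, had one of -0.39 (SE 0.10, limma adjusted p = 0.0235). Those calls were lost in 4 and 6 of 12 alternatives. Lrg1, a secreted leucine-rich glycoprotein gene, had a log2 difference of -0.13 ± 0.17 (adjusted p = 0.69). Il1b, which encodes interleukin-1β, had a log2 signal of 6.70 and 7.22 on the shEzh2.781 arrays, 6.46 and 6.08 on the shEzh2.556 arrays, and 6.37 and 6.57 on the premalignant arrays. Both shEzh2.781 arrays were above both premalignant arrays for Il1b, at a log2 difference of 0.49 (SE 0.18, limma adjusted p = 0.114), which did not pass the test. Without shEzh2.781 array 1, Il1b was higher on the 1 shEzh2.781 array left by a log2 difference of 0.75.

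**Figure D3:**
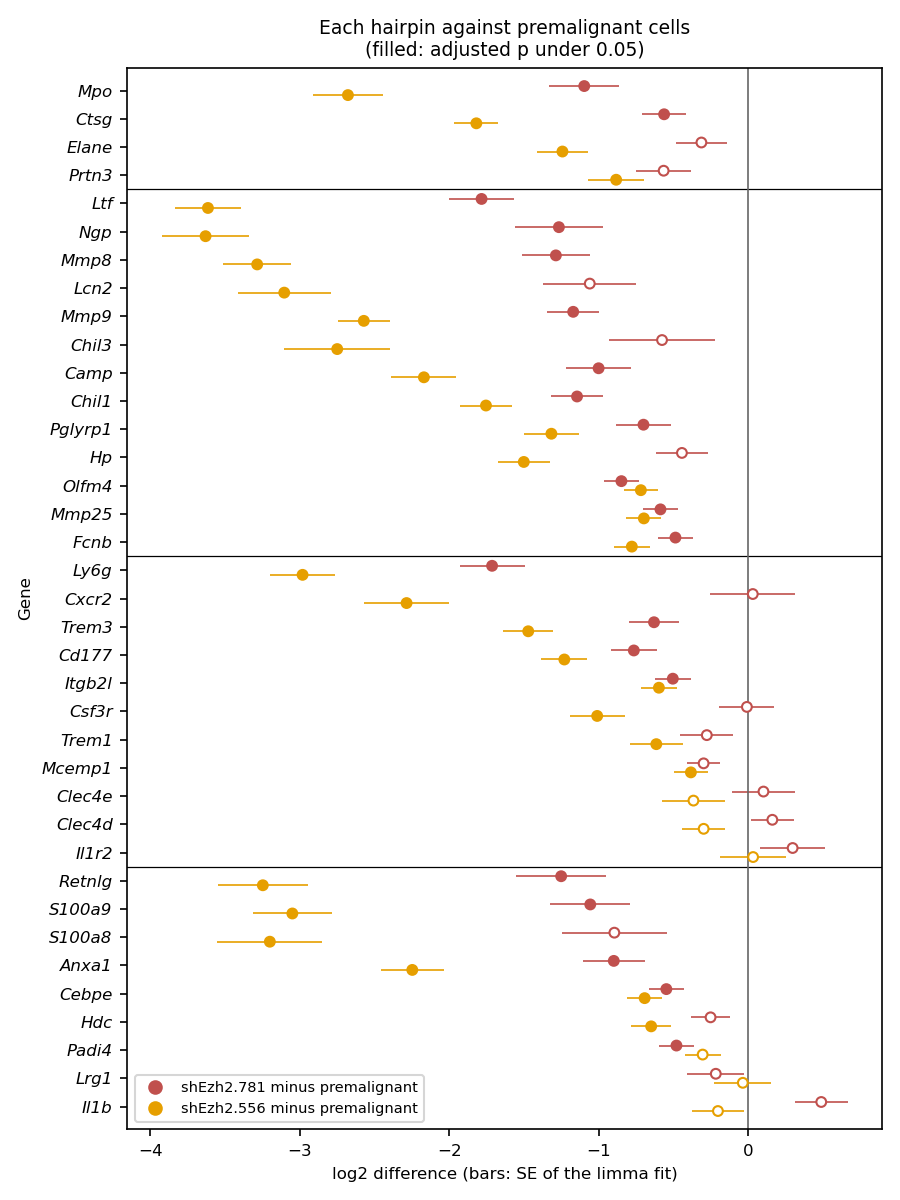
Log2 difference of each neutrophil gene from premalignant cells (x axis, bars are the SE of the limma fit) for shEzh2.781 and shEzh2.556 lymphomas, by class. Filled points passed an adjusted p of 0.05: 21 genes for shEzh2.781 and 31 for shEzh2.556, all lower.

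Between the hairpins, 21 of 37 genes were higher in shEzh2.781 than in shEzh2.556 lymphomas and 0 were lower, against 5.50% and 4.53% of all genes. At an unadjusted p under 0.05 these counts were 27 and 0, with no share of all genes counted. This comparison uses no premalignant array in its difference. The median log2 difference was 0.84 for the 37 genes, against -0.07 for all genes. It was 1.09 for the early granule genes (3 of 4 higher) and 1.17 for the late granule genes (9 of 13 higher). For receptor and surface genes it was 0.46 (4 of 11), and for the cytosolic, secreted and regulator genes 0.69 (5 of 9). On the shEzh2.556 arrays 9 and 9 of the 11 receptor and surface genes were near background, and 5 and 8 of the 13 late granule genes. The differences were led by Ngp at 2.36 (SE 0.29, limma adjusted p = 0.000607), Cxcr2 at 2.32 (SE 0.28, limma adjusted p = 0.000559) and S100a8 at 2.30 (SE 0.35, limma adjusted p = 0.00228) on the log2 scale. Mpo at 1.58 ± 0.23 (adjusted p = 0.00187) and Ctsg at 1.26 ± 0.15 (adjusted p = 0.000413) led the early granule genes. Both shEzh2.781 arrays were above both shEzh2.556 arrays for 28 of 37 genes (25.0% of all genes). Both shEzh2.781 arrays lay above both shEzh2.556 arrays and below both premalignant arrays for 23 of 37 genes (6.76% of all genes). By class these were 4 of 4 early granule, 11 of 13 late granule, 3 of 11 receptor and surface, and 5 of 9 cytosolic, secreted and regulator genes. Some genes differed little between the hairpins, with a log2 difference of -0.13 ± 0.11 (adjusted p = 0.444) for Olfm4, 0.15 ± 0.12 (adjusted p = 0.398) for Cebpe, -0.18 ± 0.12 (adjusted p = 0.324) for Padi4 and -0.18 ± 0.19 (adjusted p = 0.526) for Lrg1.

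On a linear scale, the summed signal of the 37 genes was 6680 and 10200 on the shEzh2.781 arrays, 4080 and 3080 on the shEzh2.556 arrays, and 14700 and 17000 on the premalignant arrays. The early granule sum was 759 and 772 for shEzh2.781, 398 and 335 for shEzh2.556, and 981 and 1660 for premalignant cells. The late granule sum was 3290 and 5420 for shEzh2.781, 1830 and 1260 for shEzh2.556, and 8660 and 9730 for premalignant cells. No background was subtracted from these sums or those below, and bright genes weigh most in them, so they are not amounts of neutrophil RNA. On shEzh2.556 array 2, 23 of the 37 genes and 8 of the 13 late granule genes were near background. Every class had its lowest sum on shEzh2.556 array 2. That array was also the lowest of the 6 for 32 of 37 single genes, against 11.1% of all genes.

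The arrays of a group differed in these genes, and the classes did not move together. On shEzh2.781 array 2, 33 of 37 genes were higher than on array 1, by a median of 0.52 on the log2 scale, while all genes had a median of -0.02 and the 5th and the 95th percentiles at -0.30 and 0.27. The late granule genes were higher there by a median of 0.58 and the cytosolic, secreted and regulator genes by 0.53, whereas the early granule genes differed by 0.03. Mpo, Elane and Ctsg had nearly the same signal on both shEzh2.781 arrays, while Lcn2 differed by 1.04 and Cxcr2 by 1.20. In premalignant cells the pattern was the other way round. The early granule genes were higher on array 2 by a median of 0.62, and the late granule genes by 0.14, against 0.08 for all genes. Some marker lists of other cells, described below, were also higher on premalignant array 2. Their medians were 0.54 for megakaryocyte, 0.38 for erythroid, 0.32 for T cell, 0.23 for mast cell and basophil and 0.19 for progenitor genes. B cell, monocyte and macrophage, and eosinophil genes had medians of -0.09, -0.01 and 0.01. In shEzh2.556 lymphomas 34 of 37 genes were lower on array 2, by a median of -0.26, with the late granule genes at -0.43 and the early granule genes at -0.26. The exceptions were Padi4, Lrg1 and Hdc. With 2 arrays a group these differences have no test.

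**Figure D4:**
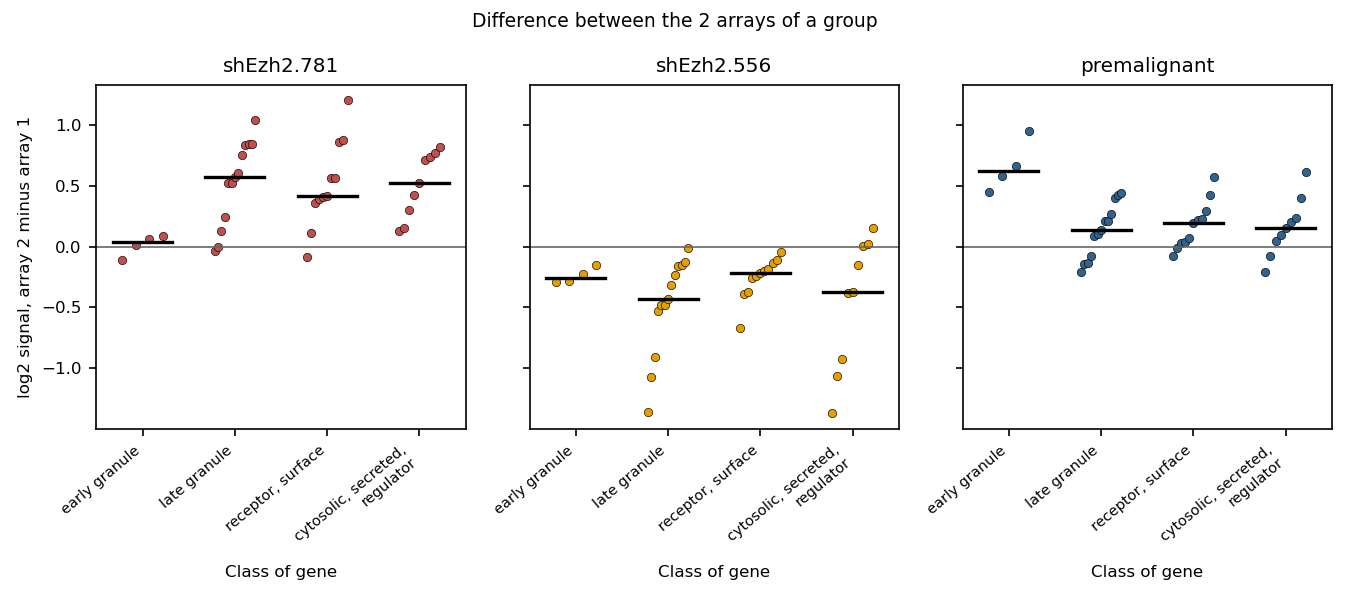
Log2 signal on array 2 minus that on array 1 for each neutrophil gene, by class, in the shEzh2.781, shEzh2.556 and premalignant panels, with black bars at the class medians. The early granule genes sit near 0 for shEzh2.781 (median 0.03) and highest of the classes for premalignant cells (median 0.62).

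A further list of 44 measured granulocyte and myeloid genes, which neutrophils share more widely with other leukocytes, moved less evenly. Of the 44 genes, 16 were lower in lymphomas and 5 higher, against 9.61% and 5.60% of all genes, with a median log2 difference of -0.21. Those lower with the smallest p-values were Mgst1 (microsomal glutathione transferase) at -1.25 ± 0.13 (adjusted p = 5.42e-05), Ncf1 (a subunit of the NADPH oxidase) at -1.23 ± 0.15 (adjusted p = 0.00016), Itgam (the integrin chain CD11b) at -1.11 ± 0.14 (adjusted p = 0.000174) and Slfn4 (a schlafen family gene) at -1.19 ± 0.15 (adjusted p = 0.000207) as log2 differences ± SE. The 5 higher genes were Serpinb1a (a serpin that inhibits neutrophil elastase) at 1.82 ± 0.14 (adjusted p = 5.84e-06), Cyba (the membrane p22phox subunit of the oxidase) at 0.60 ± 0.11 (adjusted p = 0.00247), Ncf4 (another oxidase subunit) at 0.54 ± 0.12 (adjusted p = 0.00859), Ceacam1 (an adhesion protein) at 0.58 ± 0.13 (adjusted p = 0.01) and Cebpb (C/EBPβ) at 0.37 ± 0.10 (adjusted p = 0.0287). B cells are known to express several of these, including Cyba and Ncf4. Between hairpins, 8 of the 44 were higher and 4 lower in shEzh2.781 lymphomas, against 5.50% and 4.53% of all genes. The 4 lower were Cybb (-1.17), Serpinb1a (-0.70), Cxcl2 (-0.42) and Prok2 (-0.40), with Cxcl2 and Prok2 near background on all 6 arrays. Of the genes named above as lower in lymphomas, Mgst1 (1.74) and Slfn4 (0.73) were higher in shEzh2.781 lymphomas. Itgam (0.06) and Ncf1 (-0.23) were not called between hairpins. Mgst1 had a log2 signal of 8.61 and 8.85 on the shEzh2.781 arrays, 7.19 and 6.80 on the shEzh2.556 arrays, and 9.23 and 8.99 on the premalignant arrays, with the groups in the same order as for most granule genes.

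Markers of other cell types also moved. Of 6 measured eosinophil genes 3 were lower in lymphomas and 0 higher, against 9.61% and 5.60% of all genes. The granule protein genes Ear6, Prg2 and Epx were near background on all 4 lymphoma arrays, at 5.34 to 5.78 log2 signal, and lay at 8.11 to 9.34 on the premalignant arrays. Between hairpins 0 of 6 eosinophil genes passed the limma test, and 2, both lower in shEzh2.781 lymphomas, had an unadjusted p under 0.05. The log2 differences were 0.0 ± 0.11 (adjusted p = 0.982) for Ear6, -0.27 ± 0.12 (adjusted p = 0.145) for Prg2 and -0.13 ± 0.11 (adjusted p = 0.422) for Epx, each ± its SE. The summed eosinophil signal was 348 and 388 for shEzh2.781, 397 and 430 for shEzh2.556, and 1560 and 1560 for premalignant cells. Of 9 erythroid genes 6 were lower in lymphomas, against 9.61% of all genes. For shEzh2.781 alone 8 of 9 were lower (median log2 difference -1.50), against 6.24% of all genes. For shEzh2.556 alone 0 of 9 were lower (median -0.09), against 11.4% of all genes, and 2 were lower at an unadjusted p under 0.05 in limma. In the direct comparison 9 of 9 were lower in shEzh2.781 than in shEzh2.556 lymphomas (4.53% of all genes), the opposite of the neutrophil genes. The anion exchanger gene Slc4a1 had a log2 signal of 6.96 and 8.05 on the shEzh2.781 arrays, 9.58 and 9.03 on the shEzh2.556 arrays, and 9.55 and 10.06 on the premalignant arrays. The summed erythroid signal was 764 and 1170 for shEzh2.781, 3230 and 2060 for shEzh2.556, and 2600 and 3200 for premalignant cells. Within each group the erythroid and neutrophil medians differed the same way between arrays, at 0.44 for shEzh2.781, -0.43 for shEzh2.556 and 0.38 for premalignant cells for the erythroid genes.

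Mast cell and basophil, megakaryocyte, T cell and progenitor lists each had 3 or 4 genes lower and 0 higher in lymphomas, of 8, 6, 10 and 5 measured. Over all genes, 9.61% were lower and 5.60% higher. Of the T cell genes, Cd4, Cd8a and Lat were lower, at log2 differences of -1.63, -1.38 and -0.60, and 7 were not called. Those 7 include Cd3e, Cd3d and Cd3g, at 0.12, -0.13 and -0.04. Of the megakaryocyte genes, Ppbp, Pf4 and Gp9 were lower, at -3.23, -1.05 and -0.73, and 3, among them Gp5 at -0.27, were not called. Of 14 monocyte and macrophage genes, 3 were higher and 0 lower, namely Cd5l, Csf1r and C1qb, with log2 differences of 0.97 ± 0.10 (adjusted p = 3.3e-05) for Cd5l, 0.60 ± 0.15 (adjusted p = 0.0211) for Csf1r and 0.37 ± 0.12 (adjusted p = 0.0485) for C1qb, each ± its SE. Their summed signal was 2070 and 2300 for shEzh2.781, 2800 and 2610 for shEzh2.556, and 2170 and 2430 for premalignant cells. Of 9 B cell genes 3 were lower and 1 higher, and their summed signal was 33000 and 34800 for shEzh2.781, 32200 and 33200 for shEzh2.556, and 36200 and 35100 for premalignant cells. Spn, which encodes CD43, the target of the depletion beads, had a log2 signal of 8.60 and 8.60 on the shEzh2.781 arrays, 8.65 and 8.82 on the shEzh2.556 arrays, and 8.53 and 8.58 on the premalignant arrays. Its log2 difference in lymphomas was 0.11 (SE 0.10, limma adjusted p = 0.546). The part of these other cell types in the neutrophil differences was not tested.

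**Figure D5:**
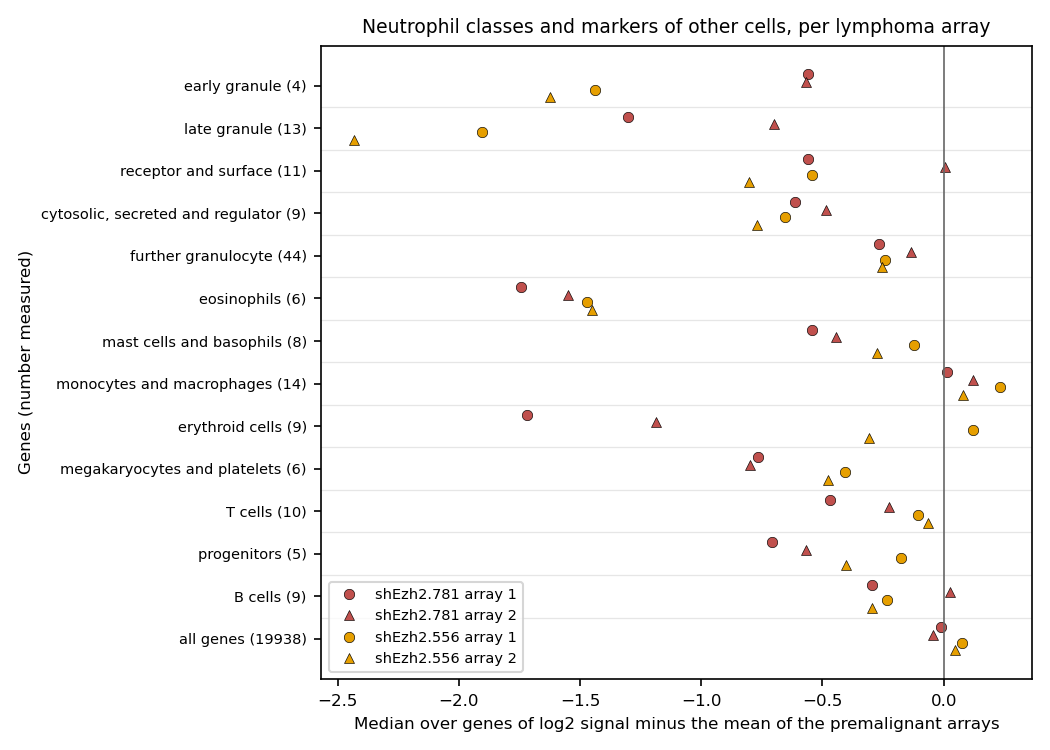
Median over the genes of each list of the log2 signal minus the mean of the premalignant arrays (x axis), for each of the 4 lymphoma arrays, with the number of genes measured in brackets. The late granule genes lie between -2.43 and -0.70, the eosinophil genes between -1.74 and -1.45, and the erythroid genes at -1.72 and -1.19 for shEzh2.781 against 0.12 and -0.31 for shEzh2.556.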

How the data were processed

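Total RNA of 6 mouse samples was hybridised to Affymetrix Mouse Gene 1.0 ST arrays. The authors deposited 1 log2 value per probe set, between 2.30 and 14.2, with array medians of 6.75 to 6.91. The log2 scale was inferred from the deposited values, and the background correction and normalization are not given in the sources used here. Offsets between arrays of the size of the spread of those medians therefore remain in the differences. Precision is set by the small number of arrays.

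The table holds 35512 probe sets. Those annotated to a single gene symbol, 21789 in all, were used, and 1621 with several symbols and 12102 without one were not. Of the probe sets used, 21698 had an Entrez identifier in the RefSeq gene table (GRCm38.p6), and 0 symbols changed. For 999 genes with several probe sets the one with the highest mean was kept, which gave 19938 genes. Each neutrophil gene had 1 probe set.

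The 3 groups were fitted together without covariates in limma 3.58.1 (R 4.3.3, lmFit and eBayes, 8.51 prior and 3 residual degrees of freedom). Benjamini-Hochberg adjustment covered all genes, calls were made at 0.05, and the fit was tested on simulated data. Fold changes are 2 to the size of the log2 difference. Alternatives were quantile normalization, median centring, the mean of all probe sets, an intensity trend, leaving out dim genes, a replicate block, both hairpins as 1 group and leaving out each array. Motif searches, tables and plots were made in Python 3.11.15 with matplotlib 3.10.9, numpy 2.4.6 and pandas 2.3.3.

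The genes and lists were chosen with earlier results of these data known. Values on every array were given for the early granule genes, for up to 5 genes of each other class with the smallest p in lymphomas, and for genes that differed between hairpins, beside Ezh2, Spn and marker genes named by the same kind of rule. Il1r2 and Slc4a1 were named after their values were seen. The other measured genes of the set were named with their differences. Same-numbered arrays were checked for pairing, which was not found.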

Additional observations from a re-analysis of the deposited data

Results flagged for a closer look

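The difference from premalignant cells was not the same for both hairpins in 21 of the 37 neutrophil genes, by limma's test of shEzh2.781 minus shEzh2.556 at an adjusted p under 0.05. All 21 were higher in shEzh2.781 lymphomas. Among the late granule genes the log2 differences were 2.36 for Ngp, 2.17 for Chil3, 2.04 for Lcn2, 2.0 for Mmp8, 1.83 for Ltf, 1.40 for Mmp9, 1.17 for Camp, 1.06 for Hp, 0.61 for Chil1. Among the early granule genes they were 1.58 for Mpo, 1.26 for Ctsg, 0.93 for Elane. For the receptor and surface genes the log2 differences were 2.32 for Cxcr2, 1.27 for Ly6g, 1.0 for Csf3r, 0.84 for Trem3. For the cytosolic and secreted genes the values were 2.30 for S100a8, 2.0 for Retnlg, 1.99 for S100a9, 1.35 for Anxa1, 0.69 for Il1b. Leaving out shEzh2.556 array 2 ended the call for Camp, Elane, Csf3r, Trem3, Chil1 and Il1b, with adjusted p-values up to 0.288 over all alternatives for Chil1, whose call was lost in 5 of 12, and up to 0.187 for Il1b, lost in 2 of 11. Beside these values, the erythroid markers moved the other way between the hairpins, with 9 of 9 lower in shEzh2.781 lymphomas. The eosinophil markers had 0 of 6 called. Of these, Ear6, Prg2 and Epx were near background on all 4 lymphoma arrays, so a difference between the hairpins could hardly show in them. Groups of 2 arrays are too small to look for a single array far from its group.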

How the results depend on the processing

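The counts of neutrophil genes called were 30 in lymphomas, 21 for shEzh2.781, 31 for shEzh2.556 and 21 between hairpins. Leaving out dim genes kept 18 of the 37 genes in the test, of which 17, 13, 17 and 13 were called. With both hairpins as 1 group of 4 arrays, 10 were called in lymphomas, and that spread includes the difference between the hairpins. In that fit 1091 of all genes were called, the lowest count of the alternatives. Leaving out each array in turn gave 24 to 31 in lymphomas, 8 to 25 for shEzh2.781, 28 to 31 for shEzh2.556 and 15 to 27 between hairpins. The 8 came without premalignant array 2 (the cause was not tested), and the 15 without shEzh2.556 array 2. Each fit without an array leaves 1 array in a group, and the spread then comes from the other groups alone. Without shEzh2.781 array 1 the shEzh2.781 differences were 0.63 for Cxcr2, 0.75 for Il1b and 0.74 for Il1r2, while most of the 37 genes stayed lower. Quantile normalization gave 30, 16, 31 and 23, median centring gave 29, 18, 31 and 26, and no difference called in the reported fit changed sign in any alternative. Cxcr2 for shEzh2.781, not called in that fit, had opposite signs without each of the shEzh2.781 arrays (0.63 and -0.57). Fitting the replicate number as a block gave 30, 22, 30 and 21 genes called. The numbers are not known to pair the arrays, since the deviations of same-numbered arrays correlated at -0.091 for shEzh2.781 with premalignant cells, -0.124 for shEzh2.556 with premalignant cells and 0.064 between hairpins. Over all genes the counts called ranged from 1091 to 3414 in lymphomas, against 3033 as reported, from 1103 to 2498 for shEzh2.781 (2161), from 1949 to 3964 for shEzh2.556 (3635) and from 718 to 2318 between hairpins (2000). Signals near background limit what can be seen on the shEzh2.556 arrays, and 2 arrays a group limit the precision.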
